A study of Mus musculus with 11 samples.

Results

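Mouse embryonic stem (ES) cells of a line labelled as carrying low overexpression of plakoglobin were compared with wild-type E14 ES cells, both grown in serum/LIF on tissue-culture plastic. Both libraries were made with inDrop, a droplet method that tags each captured transcript with a unique molecular identifier (UMI), so that repeated reads of 1 molecule count once. Barcodes with 1000 or more UMIs and at most 0.9 detected genes per UMI were taken as cells. This left 1200 cells in the library labelled JupLow and 725 in wild type, together 1925 of the 7079 cells of the 5 single-cell libraries of the series. The labels give the JupLow genotype as constitutive expression from the CAG promoter, a strong general promoter, and do not name its parent line or say whether it is a single clone. The other 3 libraries serve only as reference points. They hold a line labelled as high plakoglobin overexpression (JupHigh) in serum/LIF on plastic, wild type on plastic in 2i/LIF (inhibitors of MEK and GSK3 with LIF), and wild type embedded in gels in serum/LIF. The gel library held only 112 cells with 236195 UMIs, so many of its levels rest on few UMIs. Each condition had 1 library, so no difference below has a replicate check or a test, and all intervals are at 95% and cover counting error only.

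Plakoglobin, the product of Jup, is a catenin. It links cadherins and desmosomal cadherins to the cytoskeleton and is a close relative of beta-catenin. ES cells in serum/LIF are a mixed population in which naive pluripotency factors vary from cell to cell. Serum and BMP signalling induce the Id genes, whose products block basic helix-loop-helix factors that drive differentiation. A minority of cells can turn towards primitive endoderm, the lineage that lays down a basement membrane of laminin and type IV collagen.

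The cells held 2878334 UMIs in the library labelled JupLow (median 2193.5 per cell) and 2017950 in wild type (median 2361). The wild-type table was counted differently from the other 4. Its columns shared 19581 gene names with those of the JupLow table, and 2949 of these had 0 UMIs in one of them. Apex1, for example, had 0 UMIs in wild type and 1229 in the library labelled JupLow, while Nme2 had 1109 and 0. Levels are therefore CPM, the UMIs of a gene per 1000000 UMIs of the 16632 genes with UMIs in both tables. A gene was compared when its mean CPM was 20 or more, which 6697 genes were, and a 2-fold difference in summed CPM was taken as the line for counting genes. A gene under 20 CPM in 1 library passed this filter only through the other, where it is higher, so list counts and medians below are descriptions. By the 2-fold line 230 genes (3.43%) were higher in the library labelled JupLow and 334 (4.99%) were lower. Genes whose annotated span overlaps another gene carried most of these: 5.40% of 3629 overlapping genes were higher and 7.41% lower. Of the 2979 genes without an overlap, 28 (0.940%) were higher and 54 (1.81%) were lower. With CPM and the filter taken over genes without an overlap alone, 3947 genes were compared, of which 37 were higher and 122 lower.

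**Figure D1:**
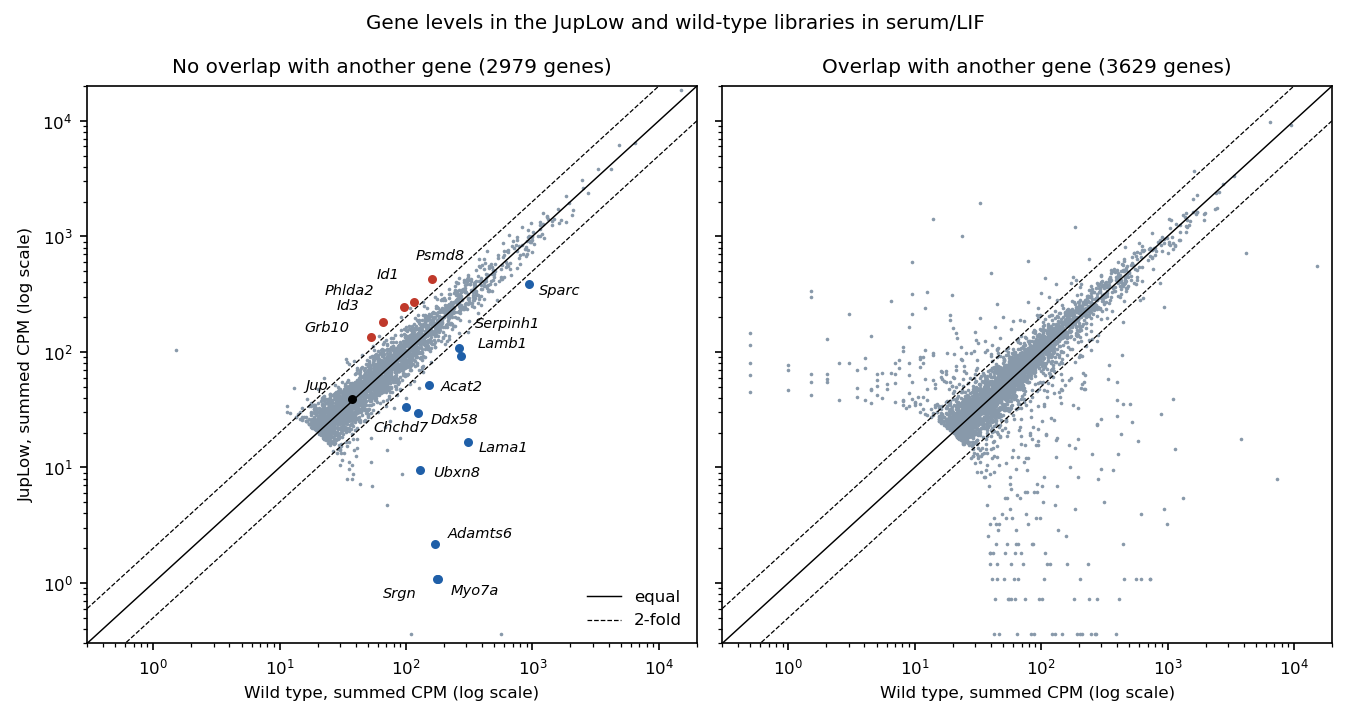
Summed CPM of each compared gene in wild type (x axis) and in the library labelled JupLow (y axis), both on log scales, for 2979 genes without and 3629 genes with an annotated overlap. Red and blue points mark the genes named as higher and lower, black marks Jup. Points far from the diagonal are much more frequent in the panel of overlapping genes.

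The difference in counting shows in well-known genes. Ctnnb1, which encodes beta-catenin, stood at 9.53 CPM in wild type, at 598 in the library labelled JupLow, and at 476, 413 and 604 CPM in JupHigh, 2i/LIF and gel. The mitochondrial gene mt-Nd6 stood at 7390 CPM in wild type and at 7.97 in the library labelled JupLow. Both genes overlap another gene, and for such genes the counting and the cells cannot be told apart. Single genes given below have no overlap unless it is named. List counts and medians pool members with and without an overlap, and the median over members without one follows where it is given. Ratios of 8-fold or more fell on 5.18% of overlapping genes and 0.336% of the others.

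Jup itself did not differ beyond counting error between the cells of the libraries. It lies at chr11:100368958-100397763 on the minus strand (GRCm38, GENCODE M21), with no overlapping gene. Wild type held 74 Jup UMIs, or 37.1 CPM (29.1 to 46.6, exact Poisson interval), and the library labelled JupLow held 109, or 39.5 CPM (32.4 to 47.6). The log2 ratio of JupLow over wild type was 0.09 (-0.35 to 0.53). A change of 2-fold or more lies outside this interval. After thinning each cell to 1000 UMIs, Jup was seen in 3.17% of wild-type cells (2.02% to 4.72%, exact binomial interval) and 3.33% of JupLow cells (2.39% to 4.51%). Without thinning the shares were 8.69% and 8.25%. In the reference libraries Jup stood at 49.9 CPM (43.3 to 57.2) in JupHigh, 48.9 (44.1 to 54.0) in 2i/LIF and 39.9 (18.3 to 75.8) in gel. Barcodes under 500 UMIs, which were not counted as cells, carried Jup at 25.4 CPM in wild type and 49.5 CPM in JupLow. Their log2 ratio was 0.96 (0.42 to 1.52), beyond counting error. Whether they hold free RNA or small or damaged cells was not tested. In JupLow their level is no lower than in the cells, so there the share of cells with a Jup UMI is not set apart from these barcodes. In wild type their level was below that of the cells. The label of the line is thus not borne out by the Jup counts of its cells, and the text keeps to "the library labelled JupLow", or JupLow for short. These counts do not set JupHigh apart from wild type in 2i/LIF either. The deposited table does not say whether a transgene without the native 3' end would be counted.

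Among genes without an overlap that reached 100 CPM in the higher library, 5 had a ratio whose whole interval lay above 2-fold in JupLow: Id3, Psmd8, Grb10, Phlda2 and Id1. All 5 stood higher in JupLow than in each of the other 4 libraries. For 2 of the 5, Id3 and Psmd8, wild type also stood below each of the other 4. Id1 and Id3 are inhibitors of differentiation. Grb10 and Phlda2 are imprinted genes that restrain growth of fetus and placenta, and Psmd8 encodes a subunit of the proteasome lid. In the other direction 11 genes passed the same rule: Myo7a, Srgn, Adamts6, Lama1, Ubxn8, Ddx58, Chchd7, Lamb1, Acat2, Sparc and Serpinh1. Wild type stood above each of the other 4 libraries for all 11, while JupLow stood below each of the other 4 for only 4 of the 11.

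Id1, Id2 and Id3 were higher in JupLow. Id1 (chr2:152736251-152737410) stood at 116 CPM (102 to 132) in wild type and 271 (251 to 291) in JupLow, a log2 ratio of 1.22 (1.00 to 1.44). Id3 (chr4:136143497-136145755) stood at 65.2 CPM (54.5 to 77.4) and 181 (165 to 197), a log2 ratio of 1.47 (1.19 to 1.76). Id2 was at 60.7 and 138 CPM, a log2 ratio of 1.18 (0.89 to 1.49). In none of the 3 did the counting intervals of the libraries overlap. Bmp4, a ligand that induces Id genes, had a log2 ratio of 0.87 (0.43 to 1.33) but overlaps another gene. Smad7, an inhibitory SMAD that BMP signalling also induces, had 0.36 (-0.25 to 0.99). Of the 8 genes of the BMP and Id list, 5 were compared, 3 were 2-fold or more higher and 0 lower, beside 3.43% and 4.99% of all compared genes. Their median log2 ratio was 1.18, beside 0.05 over all compared genes. Id4, which overlaps another gene and was too low to be compared, had 6.52 and 6.16 CPM (log2 ratio -0.08, -1.21 to 1.08).

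Levels in the reference libraries put Id1 at 45.1 CPM in JupHigh, 28.0 in 2i/LIF and 146 in gel. Id2 stood at 14.3, 4.42 and 35.5 CPM in the same order, and Id3 at 155, 72.2 and 107. JupLow thus held the highest level of these 3 genes, while JupHigh was low for Id1 and Id2 and near JupLow for Id3. The difference also showed in the number of cells. After thinning, Id1 was seen in 9.79% of wild-type cells (7.73% to 12.2%) and 15.9% of JupLow cells (13.9% to 18.1%), Id2 in 5.66% and 10.3%, and Id3 in 6.07% and 11.4%. Without thinning the shares were 19.6% and 25.2% for Id1, 12% and 19.1% for Id2, and 12.7% and 20.9% for Id3. Low-UMI barcodes held Id1 at 124 CPM in wild type and 188 in JupLow, and Id3 at 59.5 and 140, the same order as in the cells. At least 3 UMIs of the list were found in 1.52% of thinned wild-type cells (0.760% to 2.70%) and 5.67% of JupLow cells (4.43% to 7.13%). The highest cell had 5 UMIs in wild type and 15 in JupLow.

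**Figure D2:**
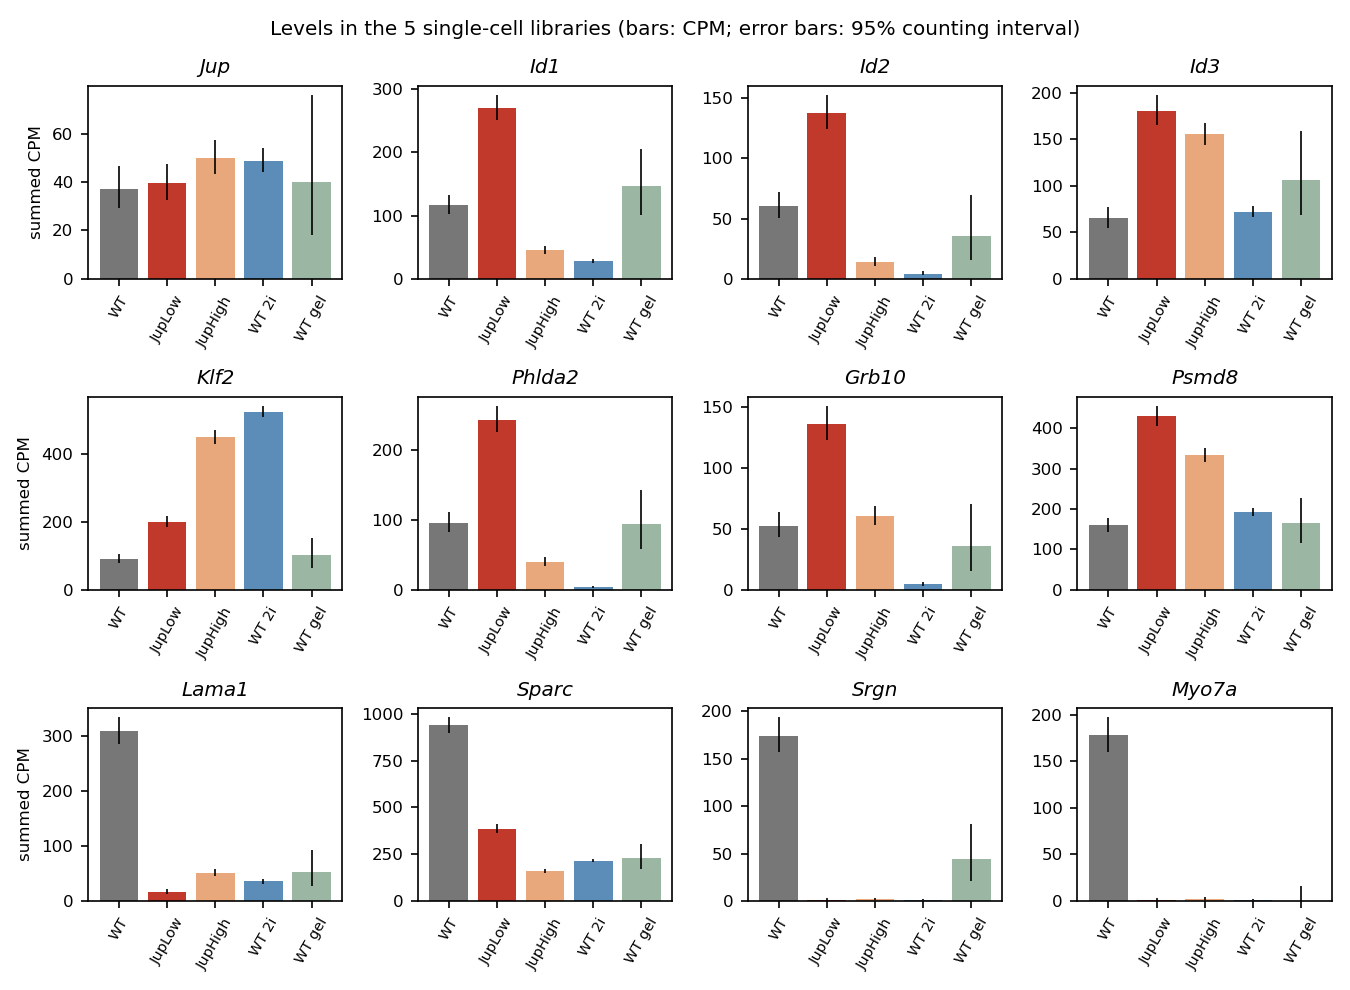
Summed CPM (y axis, linear from 0) of 12 genes in the 5 single-cell libraries, 1 library each, with exact Poisson intervals at 95%. Id1, Id2, Id3, Phlda2, Grb10 and Psmd8 are highest in JupLow, Jup is near level, and Lama1, Sparc, Srgn and Myo7a are highest in wild type on plastic.

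The start regions of Id2 and Id3 are shown because both genes stood higher in JupLow and because GGCGCC, a palindrome bound by the SMADs of the BMP pathway, can be looked for in them. Windows run from 250 bases before to 50 after the gene start in RefSeq (GRCm38.p6), and capitals mark GGCGCC. The table of windows held no entry for Id1.
Id2, chr12:25096043-25096342, minus strand: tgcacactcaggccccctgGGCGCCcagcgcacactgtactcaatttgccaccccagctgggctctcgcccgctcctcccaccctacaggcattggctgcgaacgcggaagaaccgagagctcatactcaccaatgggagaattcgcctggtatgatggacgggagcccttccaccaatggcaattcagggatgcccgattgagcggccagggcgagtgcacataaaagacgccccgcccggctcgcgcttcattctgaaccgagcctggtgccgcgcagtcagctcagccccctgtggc
Id3, chr4:136143572-136143871, plus strand: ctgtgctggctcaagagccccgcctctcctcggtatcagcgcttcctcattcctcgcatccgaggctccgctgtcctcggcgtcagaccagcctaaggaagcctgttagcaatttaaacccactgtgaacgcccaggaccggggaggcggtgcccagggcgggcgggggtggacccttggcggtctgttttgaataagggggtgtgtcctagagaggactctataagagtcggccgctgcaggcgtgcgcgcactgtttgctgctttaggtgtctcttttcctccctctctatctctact
GGCGCC, which reads the same on both strands, occurs 1 time in the Id2 window and 0 times in that of Id3. It also occurs 1 time in the window of Col4a1, a gene lower in JupLow whose window is printed further below, and 0 times in that of Col4a2. Of all 32851 windows of this kind 11.9% hold it. The matches are a description of the sequence and not evidence of binding.

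Of the imprinted list, Phlda2 and Grb10 were higher in JupLow. Phlda2 (chr7:143501545-143503150) stood at 95.8 CPM (82.7 to 110) in wild type and 243 (225 to 262) in JupLow, a log2 ratio of 1.34 (1.11 to 1.58). Grb10 (chr11:11930508-12038683) stood at 52.7 and 136 CPM, a log2 ratio of 1.37 (1.05 to 1.69). Phlda2 was seen in 9.38% of thinned wild-type cells and 17.9% of JupLow cells, and Grb10 in 5.24% and 11.8%. Without thinning the shares were 17.7% and 33.1% for Phlda2 and 11.9% and 23.3% for Grb10. Low-UMI barcodes held Phlda2 at 87.8 CPM in wild type and 216 in JupLow and Grb10 at 51.4 and 103, again the same order as in the cells. Both are expressed from the maternal copy in placenta, as is Cdkn1c, a cell cycle inhibitor that overlaps another gene and had 36.1 and 98.9 CPM. Other imprinted genes went the other way. Peg3, a zinc finger gene expressed from the paternal copy, had a log2 ratio of -0.52 (-0.83 to -0.22), and the overlapping genes Rian, Impact and H19 had -0.73, -0.50 and -0.32. Igf2r, a growth-restraining receptor gene expressed from the maternal copy and also overlapping, had -0.15 (-0.44 to 0.14). Of 14 compared members of the imprinted list, 5 were 2-fold higher and 0 lower, with a median of 0.08 (0.75 over the 4 without an overlap). Of all compared genes 3.43% were higher and 4.99% lower, and of overlapping genes, which 3 of the 5 are, 5.40% were higher. Snrpn and Mest, the remaining 2 of the 5, overlap other genes and were at 3.01 and 18.1 CPM in wild type against 741 and 115 in the gel library of the same line. Psmd8 stood at 160 and 429 CPM (log2 ratio 1.42, 1.24 to 1.61) and lies 212 bases from the nearest annotated gene. It was at 333, 191 and 164 CPM in JupHigh, 2i/LIF and gel.

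Of the matrix list, Lama1, Lamb1, Sparc, Serpinh1, P4ha2, Col4a1 and Col4a2 were 2-fold or more lower in JupLow. Lama1, the alpha chain of the laminin of early basement membranes, stood at 308 CPM (284 to 333) in wild type and 16.7 (12.2 to 22.2) in JupLow, 18.5-fold apart. Lamb1, a laminin beta chain, stood at 273 (251 to 297) and 92.0 (81.0 to 104). Sparc, a collagen-binding secreted protein, stood at 939 (897 to 982) and 385 (363 to 409), and Serpinh1, the collagen chaperone, at 260 and 107. P4ha2, a collagen prolyl hydroxylase, stood at 53.2 and 11.2. These 5 have no overlap. In JupHigh, 2i/LIF and gel, Sparc stood at 159, 216 and 231 CPM and Serpinh1 at 22.3, 19.1 and 53.3, all below JupLow. Lamb1 stood at 57.2, 17.2 and 102 in the same order. Lama1, at 51.1, 35.3 and 53.3, stood above JupLow in each. The whole list summed to 3656 CPM in wild type, 2198 in JupLow and 1584, 1698 and 1536 in these references. Lama1 and P4ha2 passed the filter only through wild type, and Nid2, described below, only through JupLow, so no support is drawn from the list's counts. Over the list, 7 of 16 were 2-fold lower and 1 higher, beside 4.99% and 3.43% of all compared genes, and the median was -0.85. Intervals lay below 0 for 10 and above 0 for 5, beside 17.9% and 22.0% of all compared genes.

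Col4a1 and Col4a2, the chains of type IV collagen, gave log2 ratios of -2.17 (-2.40 to -1.95) and -2.23 (-2.52 to -1.94). Levels were 347 and 76.8 CPM for Col4a1 and 224 and 47.8 for Col4a2. The genes are annotated head to head and overlap, and for overlapping genes the counting and the cells cannot be told apart. Their shared start region is shown because the pair had nearly equal ratios. The starts in RefSeq (GRCm38.p6) lie 21 bases apart, and capitals mark the 78 bases that the Col4a1 window shares with the Col4a2 window on the other strand.
Col4a1, chr8:11312777-11313076, minus strand: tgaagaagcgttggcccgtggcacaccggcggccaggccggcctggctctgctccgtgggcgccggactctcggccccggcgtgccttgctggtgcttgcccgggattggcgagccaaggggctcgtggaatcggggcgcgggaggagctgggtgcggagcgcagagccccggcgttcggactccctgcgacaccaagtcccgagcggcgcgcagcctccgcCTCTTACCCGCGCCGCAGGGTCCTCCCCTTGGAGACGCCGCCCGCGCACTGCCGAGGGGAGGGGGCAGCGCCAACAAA
Lamc1, a laminin gamma chain that overlaps another gene, stood just short of the 2-fold line at 279.9 and 140.2 CPM. Nid1 (nidogen, overlapping) had a log2 ratio of -0.42 (-0.77 to -0.06). Not all matrix genes followed. Fn1 (fibronectin) had a log2 ratio of 0.40, Thbs1 0.76 and Hspg2 (perlecan) 0.52, and Col18a1 had -0.04 (-0.20 to 0.13). These 4 overlap other genes. Nid2, at 19.1 CPM in wild type and 209 in JupLow, also overlaps, and the gel library of the wild-type line had it at 124.

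JupLow also held a smaller share of cells that carry endoderm transcripts. The UMIs of 8 endoderm genes were added in each cell: the transcription factors Gata6, Gata4, Sox17, Sox7 and Foxa2, the receptors Pdgfra and Cubn, and the proteoglycan core protein Srgn. Of these Gata6, Sox17, Pdgfra and Cubn overlap other genes. The genes and the limit of 3 UMIs were chosen after the data had been seen. Of the endoderm list they leave out Dab2, Apoe and Lrp2, among others, which had log2 ratios of -1.67, -0.23 and 0.04. In wild type 48 of 725 cells (6.62%, 4.92% to 8.68%) reached 3 UMIs, and in JupLow 2 of 1200 (0.167%, 0.0202% to 0.601%). Without Srgn, which had 348 UMIs in wild type and 3 in JupLow, 40 wild-type cells and 2 JupLow cells reached 3 UMIs. For the whole endoderm list, 3 or more UMIs were found in 7.17% of wild-type cells and 0.833% of JupLow cells after thinning, and in 17.2% and 6% without it. Few cells lay near the limit of the 8 genes, with 9 wild-type cells at 2 UMIs and 7 at 3, and 1 JupLow cell at 2 and 0 at 3. However, 85 wild-type and 24 JupLow cells held 1 UMI, so the wild-type excess was not confined to the 48 cells. Without the cells at 3 UMIs or more, Srgn still had a log2 ratio of -4.82 (-7.14 to -3.20). Gata6 had -1.57 (-3.12 to -0.16) and Gata4 -1.83 (-3.69 to -0.22), while the intervals of Sox7, Foxa2, Pdgfra and Cubn included 0. Of the 48 cells, 27 had 10 UMIs or more and the highest had 39. Their median depth was 2450 UMIs, beside 2358 in the wild-type cells outside both ranges described here. Gata6 had 129 UMIs in wild type and 16 in JupLow, Sox7 had 67 and 7, Gata4 58 and 5, Sox17 42 and 1, and Pdgfra 34 and 4.

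**Figure D3:**
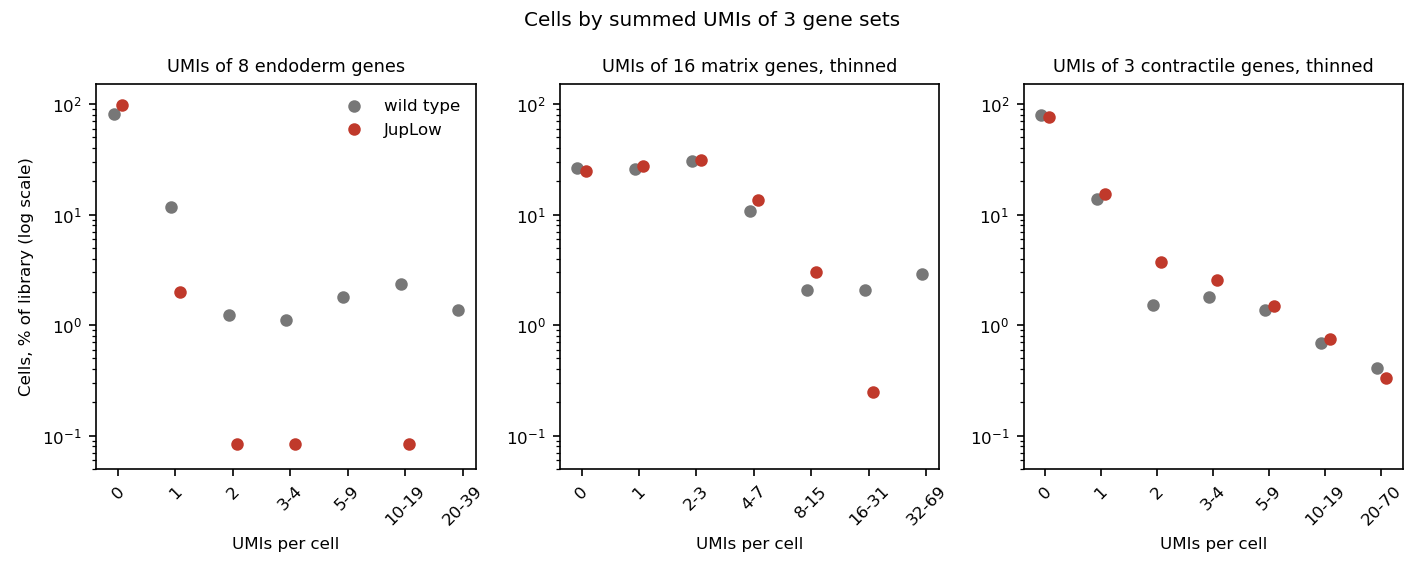
Percent of cells of each library (y axis, log scale) by the number of UMIs per cell (x axis, binned) of 8 endoderm genes, 16 matrix genes and 3 contractile genes, the last 2 after thinning to 1000 UMIs. No point is drawn for bins without cells. Only wild type has cells at 20 to 39 endoderm UMIs or 32 to 69 matrix UMIs, while the contractile counts reach the top bin in both.

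The matrix genes were not used to choose these cells, but the 7 below were picked as lower in JupLow. All 7 matrix genes that were 2-fold lower had most of their wild-type UMIs in the 48 cells, as did 1 of the other 9. Thbs1, which was higher in JupLow, had 2.87% there. The 48 cells held 88.1% of the Lama1 UMIs, 64.6% of Lamb1, 62.6% of Sparc, 66.1% of Serpinh1 and 78.1% of Col4a1. Lama1 stood at 4005 CPM in them and at 40.2 in the wild-type cells outside both ranges, where JupLow had 15.3. For Sparc these levels were 8668, 337 and 334 CPM. Leaving out cells that hold most of a gene's wild-type UMIs raises its ratio in any case. Whether these cells account for the lower matrix levels was not tested. Without the endoderm-transcript cells of both libraries, the log2 ratio was 0.01 (-0.13 to 0.15) for Sparc, -0.18 (-0.45 to 0.10) for Lamb1, 0.18 (-0.09 to 0.46) for Serpinh1 and -0.08 (-0.39 to 0.23) for Col4a1. Only Lama1 among these kept a ratio past 2-fold, with an interval that reaches within it, at -1.40 (-1.99 to -0.83). The median of the matrix list was -0.85 over 16 genes with these cells and 0.06 over 15 without them, since P4ha2 (14.5 and 11.2 CPM) then fell under the filter. The median wild-type cell of this range held 30 matrix UMIs per 1000 and 1 UMI of the core pluripotency list. In wild-type cells outside both ranges these medians were 1 and 3. The 31 wild-type cells with contractile transcripts, described below, had 2 and 1, so the low core pluripotency count was shared by both ranges.

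Of the 16 genes of the endoderm list 5 were compared, namely Srgn, Apoe, Lrp2 and the overlapping genes Gata6 and Dab2. Srgn and Gata6 passed the filter on mean CPM only through wild type, where they are high, so nothing is read from the count or median over these 5. Dab2 stood at 66.7 and 21.005 CPM. Apoe and Lrp2, which are also made by other cells, had log2 ratios of -0.23 and 0.04. Srgn stood at 175 CPM in wild type, 1.09 in JupLow and 44.4 in gel. It was seen in 8.83% of thinned wild-type cells and 0 of 1200 JupLow cells. With a floor of 3 counts over the library this allows up to 0.250% of cells with a Srgn UMI at that depth, which is no limit on cells that express the gene. Without thinning Srgn was seen in 13.4% and 0.250% of cells. The low-UMI barcodes held Srgn at 222 CPM in wild type and 4.71 in JupLow. With 1 library of each, how far the share of such cells varies between cultures of 1 line was not measured.

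**Figure D4:**
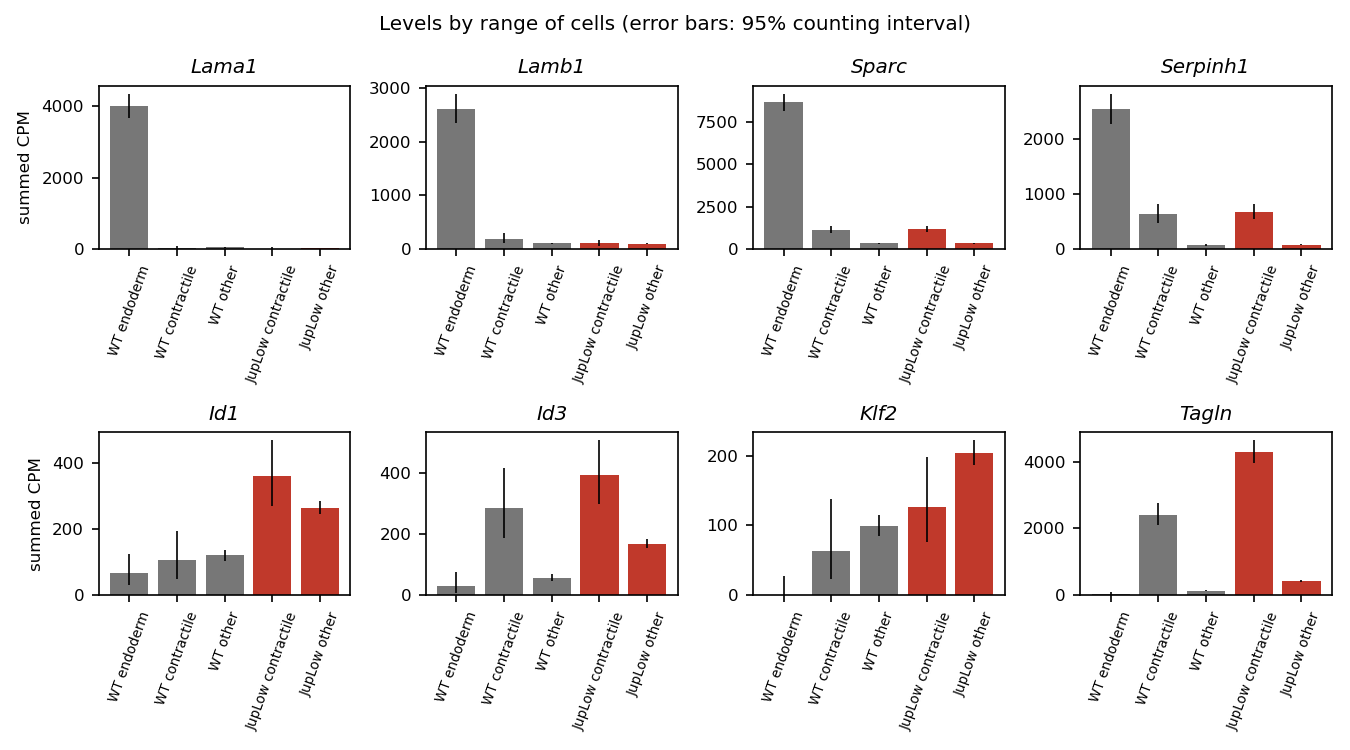
Summed CPM (y axis, linear from 0) of 8 genes in 3 ranges of wild-type cells (grey: 48, 31 and 646 cells) and 2 of JupLow cells (red: 62 and 1136), with exact Poisson intervals at 95%. The matrix genes drawn peak in the wild-type cells with endoderm transcripts, Id1, Id3 and Klf2 are higher in JupLow among the other cells, and Tagln peaks in cells with contractile transcripts.

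The genes named as higher stayed higher without these cells, but not all kept an interval wholly past 2-fold. Leaving out the endoderm-transcript cells gave log2 ratios of 1.42 (1.13 to 1.71) for Id3, 1.26 (lower bound 1.02) for Phlda2 and 1.47 (1.28 to 1.66) for Psmd8. For Id1 the ratio was 1.17 (0.96 to 1.40), for Grb10 1.26 (0.95 to 1.59) and for Id2 1.10 (0.80 to 1.41), so that Id1 and Grb10 no longer met the rule by which they were named. Over the 13 alternative settings that give an interval, Id1 missed that rule in 8, Grb10 in 4 and Phlda2 in 1, and Id3 and Psmd8 in 0. In the cells outside both ranges (646 wild type, 1136 JupLow) Id1 stood at 121 and 265 CPM and Id3 at 56.1 and 169. Id3 was also raised within each library in cells with contractile transcripts, described next, at 286 CPM (188 to 416) in wild type and 394 (300 to 508) in JupLow.

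The remaining genes named as lower were a mixed set, apart from Srgn, and most of their wild-type UMIs lay outside the endoderm-transcript cells. Myo7a, a myosin of sensory hair cells, stood at 178 CPM in wild type and 1.09 in JupLow, and at 1.94 and 1.01 in JupHigh and 2i/LIF. Gel had 0 Myo7a UMIs, which with a floor of 3 UMIs in that library allows up to 13.3 CPM. Adamts6, a secreted protease, stood at 171 and 2.17 CPM, with 3.63, 2.90 and 4.44 in the reference libraries. The 48 cells held 13.2% of wild-type Myo7a UMIs and 10.6% of Adamts6. Both still stood higher in these cells than in wild-type cells outside both ranges. Levels were 348 and 166 CPM for Myo7a and 266 and 161 for Adamts6, with intervals that did not overlap. Chchd7 was lower in the 48 cells, at 22.2 and 107 CPM, and for Ubxn8, Ddx58 and Acat2 the intervals overlapped. Ubxn8 stood at 129 and 9.42 CPM and has a neighbour 145 bases away, and Chchd7, with a neighbour 465 bases away, stood at 101 and 33.3. Ddx58, the RNA sensor RIG-I, had 125 and 29.3, and Acat2, of cholesterol and ketone metabolism, 151 and 52.1. Gel, the other wild-type library in serum/LIF, had 8.88, 48.8, 31.1 and 57.7 CPM for these 4, from only 2, 11, 7 and 13 UMIs. Intervals there were wide, at 24.4 to 87.4 CPM for Chchd7 and 30.7 to 98.7 for Acat2, and Adamts6 had 1 UMI. For all 6 the gel level, on these few UMIs, was nearer to JupLow than to wild type on plastic, whose table was the one counted differently. The part of the counting in these genes was not tested.

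A second range of cells, with 3 or more thinned UMIs of Acta2, Cnn1 and Myl9 and outside the first range, was found in both libraries at like shares. No cell belonged to both ranges. The limit was reached by 31 of 725 wild-type cells (4.28%, 2.92% to 6.01%) and 62 of 1200 JupLow cells (5.17%, 3.98% to 6.57%). Near the limit, 11 wild-type cells had 2 UMIs and 8 had 3, and 45 JupLow cells had 2 and 25 had 3, so the range has no sharp edge. Acta2, smooth muscle actin, stood at 505 and 575 CPM over all cells, against 9.21 in JupHigh, 0.379 in 2i/LIF and 8.88 in gel. Single cells held up to 30 Acta2 UMIs of 1000 in wild type and 69 in JupLow. Krt8 (overlapping) and Krt18, the keratins of simple epithelia, were also high in this range, with Krt18 at 1473 CPM in wild type and 1701 in JupLow, beside 184 and 233 in the other cells. Tagln, an actin-binding protein whose gene overlaps another, stood at 2416 and 4297 CPM in the range and at 136 and 429 outside it. Over all cells it had 238 and 638 CPM, a log2 ratio of 1.42 (1.28 to 1.57). Vim, an intermediate filament gene without an overlap, was lower in JupLow at 306 and 149 CPM (log2 ratio -1.04, -1.22 to -0.86). The contractile range held 46.2% of Vim UMIs in wild type, and Vim stood there at 2988 and 861 CPM. Over the contractile list 4 of 24 genes were 2-fold higher and 0 lower, beside 3.43% and 4.99% of all compared genes, with a median of 0.21. All 4 (Actn4, Tagln, Acta1 and Vcl) overlap other genes, of which 5.40% were higher, and 0 of the 11 without an overlap passed 2-fold.

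Several genes of epithelial contacts, among them Cdh1 and Epcam, were higher in JupLow by less than 2-fold. Cdh1 (E-cadherin) stood at 309 CPM (286 to 335) in wild type and 461 (436 to 487) in JupLow, and Epcam, an epithelial adhesion protein, at 261 and 435. Cdh3 (P-cadherin) had a log2 ratio of 0.83 (0.45 to 1.22), Cgn (cingulin, of tight junctions) 0.65 (0.34 to 0.96) and Cldn6 0.61 (0.33 to 0.89). Among 15 compared junction genes 8 had an interval above 0 and 0 below, beside 22.0% and 17.9% of all compared genes, while 1 was past 2-fold (Ctnnb1, described above). Ctnnb1 is among those with an interval above 0 and passed the filter only through JupLow, so no support is drawn from these counts. Of the 8 members without an overlap 6 had an interval above 0 and 0 below, beside 19.8% and 16.4% of all compared genes without one. The median was 0.25 over the list and 0.60 over its 8 genes without an overlap. Cdh1 was seen in 25.2% of thinned wild-type cells and 33.4% of JupLow cells, and Epcam in 19.7% and 27.5%. The low-UMI barcodes did not show this order, with Cdh1 at 280 CPM in wild type and 227 in JupLow.

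Among desmosome genes, whose products are partners of plakoglobin, Pkp2 and Perp were higher. Pkp2, a plakophilin, stood at 45.1 and 93.1 CPM (log2 ratio 1.04, 0.69 to 1.41), and Perp, a desmosomal membrane protein, at 49.2 and 85.5 (0.80, 0.45 to 1.15). Dsp (desmoplakin) and Dsg2 overlap other genes and had 0.55 and 0.60. Krt8 (overlapping) had 0.08 (-0.03 to 0.19) and Krt18 0.32 (0.16 to 0.48). Of 8 compared keratin and desmosome genes 6 had an interval above 0 and 0 below, beside 22.0% and 17.9% of all compared genes, 1 was past 2-fold (Pkp2) and the median was 0.44.

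**Figure D5:**
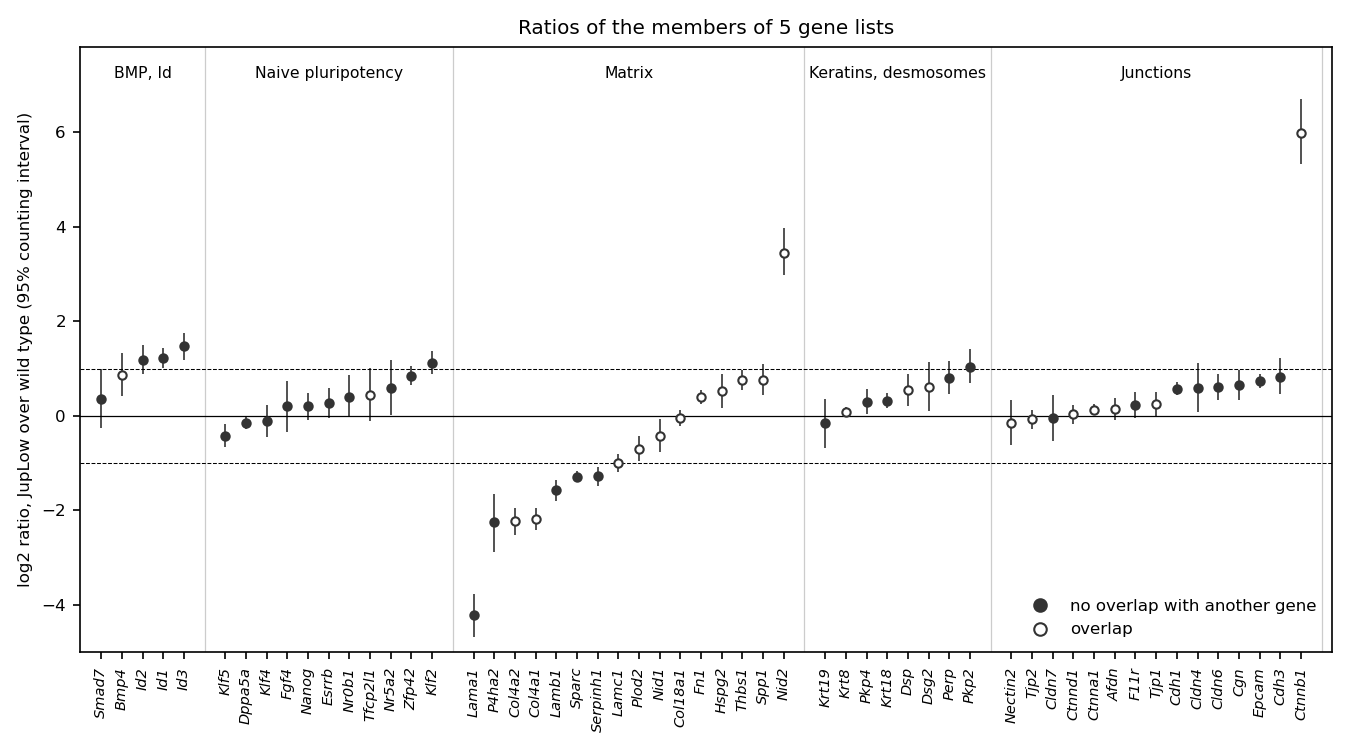
Log2 ratios of JupLow over wild type (y axis) for the compared members of 5 gene lists, with exact 95% counting intervals, 1 library a side. Filled points have no annotated overlap and open points do, and dashed lines mark 2-fold. Id1, Id2 and Id3 lie above the upper line, Lama1 to Serpinh1 lie below the lower line, and the pluripotency and junction genes mostly lie between the lines.

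Of the naive pluripotency genes, Klf2 and Zfp42 were higher in JupLow. Klf2, a Krüppel-like factor of the naive network, stood at 91.3 CPM (78.5 to 106) in wild type and 200 (183 to 217) in JupLow, a log2 ratio of 1.13 (0.88 to 1.38). It was at 447 CPM in JupHigh and 523 in 2i/LIF. Zfp42 (Rex1) stood at 138 and 250 CPM, a log2 ratio of 0.85 (0.65 to 1.06), and at 772 and 497 in the same references. For both genes JupLow lay between wild type on plastic and these references, JupHigh and 2i/LIF. The whole naive list summed to 1230 CPM in wild type on plastic, 1423 in JupLow, 4121 in JupHigh and 3996 in 2i/LIF. In gel, wild type in serum/LIF, it summed to 1642, also above JupLow. Klf2 was seen in 6.48% of thinned wild-type cells and 14.4% of JupLow cells, with 48.5 and 107 CPM in low-UMI barcodes. It had 0 UMIs in the 48 wild-type cells with endoderm transcripts, which with a floor of 3 UMIs over these cells allows up to 22.2 CPM, and without those cells its log2 ratio was 1.03 (0.78 to 1.28).

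Other naive genes had smaller ratios. Nr5a2, an orphan nuclear receptor, had a log2 ratio of 0.58 (0.02 to 1.17) at 19.6 and 29.3 CPM. Nanog, Esrrb and Klf4 had log2 ratios of 0.20 (-0.08 to 0.49), 0.28 (-0.04 to 0.60) and -0.11 (-0.45 to 0.22), and Klf5 had -0.42 (-0.65 to -0.18). Without endoderm-transcript cells the ratio of Klf4 turned to 0.37 (-0.0046 to 0.76), at 47.9 and 62.0 CPM. Of 11 compared naive genes 1 was 2-fold higher and 0 lower, 3 intervals lay above 0 and 2 below, and the median was 0.28. These counts are near the 22.0% and 17.9% of all compared genes. At least 3 naive UMIs were found in 15.03% (12.5% to 17.8%) of thinned wild-type cells and 19% (16.8% to 21.3%) of JupLow cells. Without thinning the order was the opposite, at 44.1% and 40.6%. Core pluripotency genes, which mark ES cells, were present in both libraries, with summed levels of 3362 CPM in wild type and 3501 in JupLow. Their median ratio was 0.11, and -0.23 over the 5 without an overlap, with 0 of 9 past 2-fold. Utf1 was at 456 and 555 CPM, L1td1 at 368 and 263, and Pou5f1 (Oct4, overlapping) at 471 and 415. Of 6 formative genes 0 passed 2-fold, and Pou3f1 (Oct6, overlapping) was at 154 and 221 CPM.

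Among the other signalling lists, ERK targets had a median of 0.06 over 14 genes (-0.06 over the 9 without an overlap) with 0 past 2-fold. Myc was the highest at 69.2 and 126 CPM (log2 ratio 0.86, 0.57 to 1.16), and Dusp6, a phosphatase induced by ERK, stood at 113 and 109. The WNT list had 3 compared genes with a median of 0.49, of which Ccnd1 (cyclin D1, overlapping) passed 2-fold at 49.7 and 199 CPM. Znrf3, a WNT feedback gene without an overlap, had 0.27 (-0.27 to 0.81). YAP targets had a median of -0.23 over 9 genes, with Ccn1 at 150 and 106 CPM and F3 at 114 and 78.9. Without endoderm-transcript cells this median was 0.34, and both genes changed direction, Ccn1 to 69.9 and 106 CPM (log2 ratio 0.60, 0.30 to 0.91) and F3 to 0.07 (-0.24 to 0.39). LIF and STAT3 genes had 0.10 (-0.10 over the 4 without an overlap), with Socs3 at 81.8 and 66.6 CPM and Pim3 at 101 and 163. Of the 7 compared, 2 had an interval above 0 and 1 below. The latter was Lifr, the LIF receptor gene, at -0.61 (-1.03 to -0.20). Without endoderm-transcript cells Lifr had 0.08 (-0.40 to 0.57).

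Medians of the stress, metabolic and cycle lists were 0.02 for 13 p53 targets, -0.18 for 9 heat shock genes, 0.00 for 19 glycolysis genes, 0.29 for 12 sterol and fatty acid genes, 0.14 for 15 S phase genes and 0.06 for 20 G2 and M genes. Over members without an overlap the glycolysis median was -0.05 and that of the G2 and M genes -0.02. Atf4, the transcription factor of the integrated stress response, was lower in JupLow at 84.8 and 42.7 CPM (log2 ratio -0.99, -1.34 to -0.64), and its list of 9 genes had a median of -0.02 (-0.42 over the 4 without an overlap) with 1 lower (Sesn2, overlapping). P4ha1 was the 1 glycolysis and hypoxia gene 2-fold lower, at 67.7 and 22.5 CPM. It encodes a collagen prolyl hydroxylase, and 72.6% of its wild-type UMIs lay in the endoderm-transcript cells, without which its log2 ratio was 0.18 (-0.43 to 0.80). Of markers of cells foreign to these cultures, the fibroblast list summed to 55.2 CPM in wild type and 36.6 in JupLow. Within it Col1a1 had 46 and 38 UMIs, and Dcn had 0 in both. The blood list summed to 0.502 and 0.724 CPM.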

How the data were processed

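Single cells of 5 inDrop libraries were deposited as UMI counts per gene and cell barcode. The authors made these counts with tools listed without role or version in the submitters' processing notes (FastQC, STAR, featureCounts, DESeq2, Scanpy; builds mm10 and GRCm38). Use of strand, multimapping and the barcode filter are not given in the sources used here. The members and gene lists were chosen with earlier results of these data known. Columns without a gene name were left out (0.00509% of UMIs in wild type, 0.246% in JupLow), as were 1 wild-type and 2 JupLow barcodes with over 0.9 genes per UMI. No doublet caller was run. No whole barcode was shared between the libraries, and 7 kept cells of wild type shared both outer barcode parts with a JupLow cell.

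UMIs were summed per library over the 16632 genes with UMIs in both tables, which took 98.8% of wild-type and 95.9% of JupLow UMIs, and scaled to CPM without a pseudocount. Ratios have exact conditional binomial intervals at 95%, levels exact Poisson and shares Clopper-Pearson intervals. Shares and spread used cells thinned at random to 1000 UMIs. Overlap means an annotated span shared with another gene on either strand in GENCODE M21, where 365 kept genes had no match by symbol and 89 of these were compared. Of 5 start regions looked up in RefSeq, 4 matched. Up to 12 genes per direction were named, provided the higher of their 2 levels reached 100 CPM and they were without overlap, predicted name or mitochondrial origin, with the interval wholly past 2-fold, and Jup. From each of the 35 lists, the members with the highest levels and largest ratios were eligible. The calculation was tested on simulated data. Python 3.11.15, numpy 2.4.6, scipy 1.17.1, pandas 2.3.3 and, for TMM factors, edgeR 4.0.16 in R 4.3.3 were used. The bulk libraries were not used. Alternatives covered scaling, filters, cell limits and thinning.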

Additional observations from a re-analysis of the deposited data

Results flagged for a closer look

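Jup in barcodes under 500 UMIs, outside the cells compared, had a log2 ratio of JupLow over wild type of 0.961 (0.418 to 1.52), from 84 UMIs in 4235 JupLow barcodes and 44 UMIs in 4652 wild-type barcodes. This signal stood above the level in the control library, while the cells themselves had a ratio of 0.09.

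Genes that were left out because the wild-type table has no column or no UMI for them held 4.07% of the UMIs of JupLow cells, and genes left out for the converse reason held 1.20% of wild-type UMIs. They include mt-Nd4, with 44336 UMIs in JupLow and no column in wild type, Myl12a with 2836, and Sox2, a core pluripotency factor, with 597. Of these nothing can be said between the libraries.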

How the results depend on the processing

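Each condition had 1 library, so the alternatives speak to processing and not to biological variation, and depth limits genes under 20 CPM. No paired analysis was possible because each compared group has 1 library. The Jup log2 ratio lay between -0.00777 and 0.227 over 14 alternatives, inside its main interval, and the ratios of JupLow to wild type in the share of cells with a UMI, for 10 genes, stayed within their main counting range in all 30 values, though the shares themselves rose without thinning. Endoderm-list medians below rest on genes that passed the filter only through wild type, and nothing is read from them. Taking CPM and the filter over genes without an overlap alone moved the median of all compared genes from 0.05 to -0.07. With CPM and the filter as in the main setting, the median over the 2979 genes without an overlap was 0.04. CPM and the filter over these genes alone gave 37 higher and 122 lower of 3947 genes. List medians were then -0.33 (core pluripotency), -3.83 (primitive endoderm), -1.67 (matrix), -0.22 (lamina), -0.51 (integrated stress), -0.26 (heat shock), -0.21 (glycolysis), -0.10 (sterols) and 0.66 (imprinted). Without a filter on mean CPM 1192 of 16632 genes were higher and 2405 lower. Of the 7735 without an overlap 443 were higher and 893 lower. Medians were then -3.52 (endoderm), 0.16 (YAP) and 0.81 (BMP and Id). At 50 CPM or more the counts were 99 and 168 of 3576 genes, with 15 and 23 of the 1648 without an overlap. The endoderm median was then -0.23. A pseudocount of 10 CPM left 14 higher and 35 lower of 2979 genes without an overlap. At 2000 UMIs per cell 43 of 3015 genes without an overlap were higher, and at 500 the matrix median was -1.12. Leaving out cells with 3 or more UMIs of the endoderm list gave medians of 0.14 (matrix) and 0.34 (YAP), and log2 ratios of 0.14 for Serpinh1, 0.74 for Dab2, 0.18 for Col4a1 and 0.091 for P4ha1. Leaving out those with 3 or more UMIs of 8 endoderm genes, chosen after the data were seen, gave medians of -0.24 (endoderm), 0.059 (matrix) and 0.34 (YAP), and 0.013 for Sparc, 0.18 for Serpinh1 and 0.18 for P4ha1. The share of cells with 3 or more endoderm-list UMIs, as a ratio of JupLow to wild type, was 0.116 after thinning to 1000 UMIs, 0.371 at 2000 and 0.348 without thinning, and for the naive list 1.26 and, without thinning, 0.919. Of the genes named as lower, Lama1, Lamb1, Sparc and Serpinh1 had intervals reaching within 2-fold in both settings without endoderm cells, Serpinh1 also at 2000 UMIs per cell and Chchd7 at 500. The cause of these shifts was not tested. Of all 375 list medians under the alternatives, those above included, 356 stayed within the main counting range.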

Other observations

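Most compared genes of the DNA methylation and Polycomb lists overlap other genes, for which the counting and the cells cannot be told apart. Uhrf1, which brings the maintenance methyltransferase to replicated DNA, had 91.8 and 141 CPM in wild type and JupLow and is the 1 compared member of its list without an overlap. Over the list of 4 the median log2 ratio was 0.48, with 0 past 2-fold and all 4 intervals above 0, beside 22.0% of all compared genes. The 9 Polycomb genes had a median of 0.39, with 6 intervals above 0 and 0 below, beside 22.0% and 17.9% of all compared genes. Of the 9, 1 was 2-fold higher (Kdm2b, overlapping), beside 3.43% of all compared genes and 5.40% of overlapping genes. Of these 9, 8 overlap other genes. Ribosomal protein genes had a median of -0.20 over 83 genes and -0.20 over the 35 without an overlap. They took 7.54% of the counted UMIs in wild type and 6.83% in JupLow.

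Cells resembling the transient 2-cell-like state, which express Zscan4 genes, were rare in both libraries. After thinning, 1 of 725 wild-type cells held 3 or more UMIs of the list, with 31 UMIs of 1000, and 2 of 1200 JupLow cells did, with 8 and 3 UMIs. The Zscan4 genes are near-identical copies, so the split between them is uncertain.

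The spread over cells differed between the libraries for some genes. Id1 had a variance of 1.99 times its mean over thinned JupLow cells, with 11 UMIs in the highest cell, beside 1.23 times and 3 UMIs in wild type. Sparc had 8.28 times its mean in wild type and 1.57 in JupLow.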
